A study of Harpegnathos saltator with 22 samples.

Results

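The genes described here are arm (LOC105192008), alpha-Cat (LOC105184796) and Actn (LOC105189773), which encode β-catenin, α-catenin and α-actinin of the ant Harpegnathos saltator. They were taken by their gene identifiers from the authors' deposited table of 13693 genes, and all 3 were found and tested in each of the 3 deposited comparisons. Values are per gene, not per transcript, and RefSeq assembly Hsal_v8.6 annotates 2 transcripts for arm, 2 for alpha-Cat and 5 for Actn. The ovaries of 22 ants were profiled by sequencing of polyadenylated RNA, 1 library per ant. There were 4 groups: mature workers that had received Kr-h1 siRNA (4 ants), mature workers with GFP siRNA as control (5 ants), mature gamergates with Kr-h1 siRNA (7 ants) and mature gamergates with GFP siRNA (6 ants). Workers are the non-reproductive caste, and gamergates are former workers that mate and lay eggs. Every ant, controls included, was injected in the head with a dicer-substrate siRNA carried by the in vivo-jetPEI reagent in glucose solution, and its ovaries were dissected 24 h later. The control siRNA is called GFP in the sample titles and GRP in the protocol text. Ages, and whether ants came from separate colonies, are not stated in the sources used here.

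Adherens junctions hold epithelial cells together. Cadherins span the gap between neighbouring cells, β-catenin binds the cadherin tail, α-catenin binds β-catenin, and α-catenin in turn connects the complex to actin filaments, which α-actinin cross-links. In the Drosophila ovary the complex holds the follicle epithelium together, positions the oocyte at the end of the egg chamber and serves the migration of the border cells. β-catenin has a second role as the nuclear effector of Wnt signalling, and α-actinin also anchors the actin filaments of muscle at the Z-disc. Kr-h1, the target of the siRNA, is a zinc-finger transcription factor that responds to juvenile hormone.

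The table gives 1 mean normalized count, 1 log2 fold change, 1 p-value and 1 adjusted p per gene and comparison, and no value per ant, so the value in every sample cannot be shown and the depth of each library is unknown. The mean normalized counts in the deposited table summed to 10042271 in the worker knockdown comparison, 11949157 in the gamergate one and 11307846 between castes. Kr-h1 itself (LOC112589664) did not pass in either knockdown comparison of the authors' deposited table (log2 -0.48, adjusted p = 0.706 in workers, and 0.26, adjusted p = 0.734 in gamergates). A change of the targeted gene in the ovary was thus not detected. Its mean count was 38.7 in the worker comparison and 42.3 in the gamergate one, with recovered SEs of 0.70 and 0.47. With SEs this wide, a sizeable change could have gone undetected. The labelled tissue was checked with 6 oogenesis genes (vas, orb, egl, BicD, hts and yl), of which hts is also in the actin list below. Their recovered levels ran from 689 to 10823 normalized counts across the 4 groups, with none at 0. In GFP workers the 6 summed to 26668, and the 12 muscle markers described below to 29106. In the other groups the oogenesis sum was the larger. The check thus does not show that the samples were free of other tissue. In such bulk samples, fewer cells of a type and less RNA per cell cannot be told apart. Each fold change below is given with an SE recovered from the deposited p-value, and a gene is called when its adjusted p in the deposited table was under 0.05.

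The mean level of each group was recovered from the deposited mean, the fold change and the number of ants, and all 4 groups were put on the scale of the caste comparison. For arm the recovered means were 2469 normalized counts in Kr-h1 workers, 2309 in GFP workers, 2192 in Kr-h1 gamergates and 1980 in GFP gamergates. The 4 means of arm thus lay within 1.25-fold of each other, with both worker groups above both gamergate groups. For alpha-Cat the recovered means were 1868 normalized counts in Kr-h1 workers, 1833 in GFP workers, 2271 in Kr-h1 gamergates and 1891 in GFP gamergates. Here the Kr-h1 gamergates were the high group, and the other 3 groups lay close together. For Actn the recovered means were 3141 normalized counts in Kr-h1 workers, 3255 in GFP workers, 2975 in Kr-h1 gamergates and 2202 in GFP gamergates, so that the GFP gamergates were the low group. The step from GFP workers to Kr-h1 gamergates in arm, from GFP gamergates to Kr-h1 workers in alpha-Cat and from Kr-h1 workers to Kr-h1 gamergates in Actn belongs to no deposited comparison. These steps were not tested. Whether single ants of the groups overlapped cannot be read from means.

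**Figure D1:**
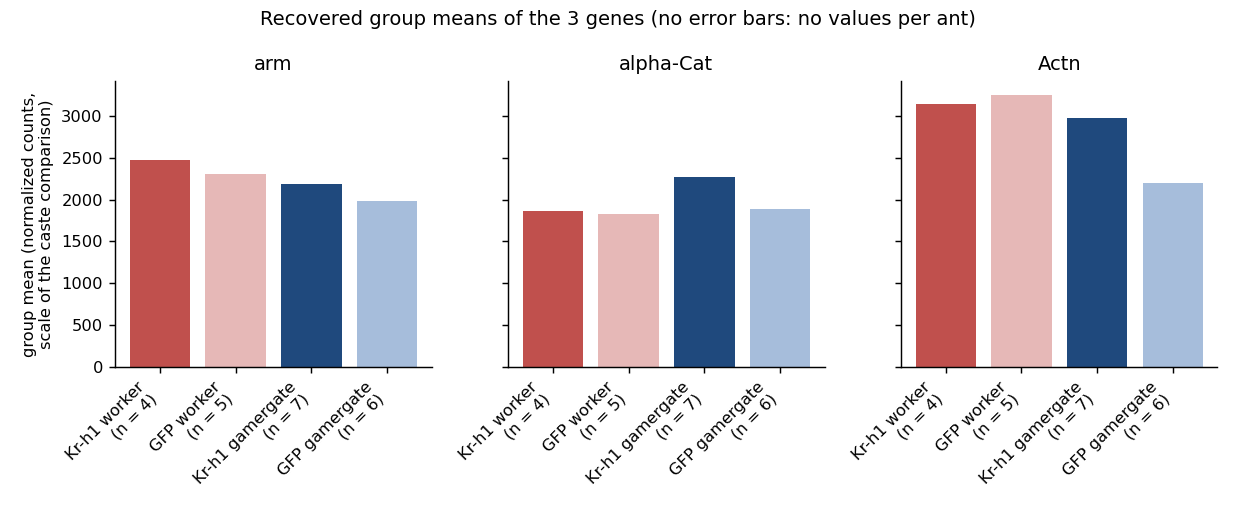
Recovered group means of arm, alpha-Cat and Actn in normalized counts (vertical axis, from 0) for Kr-h1 workers, GFP workers, Kr-h1 gamergates and GFP gamergates. There are no error bars, since no values per ant were used; alpha-Cat stands highest in Kr-h1 gamergates (2271) and Actn lowest in GFP gamergates (2202).

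The β-catenin gene arm passed the test in none of the 3 comparisons of the authors' deposited table. In gamergates its log2 fold change there was 0.15, Kr-h1 over GFP siRNA, or 10.7% (recovered SE 0.07 and adjusted p = 0.148). The 95% interval of that fold change ran from 0.0033 to 0.29, and with this SE a log2 fold change of 0.20 would have been needed for a call. In workers its deposited log2 fold change was 0.10, Kr-h1 over GFP siRNA (recovered SE 0.20, adjusted p = 0.797). The interval in workers ran from -0.30 to 0.49, so that changes of up to 1.41-fold in the upward direction lay inside it. Between castes with GFP siRNA, arm stood at 0.22, workers over gamergates, in the authors' deposited table (recovered SE 0.15, adjusted p = 0.222). Once the fold changes of all genes were taken relative to the running median of genes of similar mean count, which was -0.14 there, the value of arm between castes became 0.36 with an adjusted p of 0.0399 (z test on the recovered SE).

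The α-catenin gene alpha-Cat rose in gamergates after Kr-h1 siRNA, by 20.1%. Its log2 fold change in the authors' deposited table was 0.26 (recovered SE 0.09, 95% interval 0.08 to 0.45, adjusted p = 0.0370). Over all 11145 genes tested in that comparison, 14.8% were called in either direction, 8.95% higher and 5.9% lower, so that 1 call among 3 genes gives no share that can be set against this background. The value of alpha-Cat lay just past the log2 fold change of 0.25 that its SE required for a call. In workers the deposited log2 fold change of alpha-Cat was 0.03, Kr-h1 over GFP siRNA (recovered SE 0.18, 95% interval -0.32 to 0.37, adjusted p = 0.940). A change in workers as large as that in gamergates lies inside that interval. Between castes with GFP siRNA, alpha-Cat stood at -0.04, workers over gamergates, in the authors' deposited table (recovered SE 0.13, adjusted p = 0.790), and in size this was the smallest of the 3 caste fold changes. Levels of other genes in the same gamergates are given beside this value. The summed recovered level of 5 eggshell genes (ndl, yellow-g, yellow-g2, tsl and fs(1)N) was 4032 normalized counts in Kr-h1 gamergates and 15504 in GFP gamergates. Of the 5, the authors' deposited table calls ndl lower and fs(1)N higher in Kr-h1 gamergates, tsl did not pass (adjusted p = 0.261), and yellow-g and yellow-g2 have no p-value. The sum of the 6 oogenesis genes was 26957 in Kr-h1 gamergates and 24107 in GFP gamergates. The part of these genes in the alpha-Cat value was not tested.

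The α-actinin gene Actn was higher in workers than in gamergates with GFP siRNA, by 1.48-fold. Its log2 fold change there in the authors' deposited table was 0.56, workers over gamergates (recovered SE 0.12, 95% interval 0.32 to 0.81, adjusted p = 2.04e-05). Calls were common between castes, at 53.2% of the 12338 genes tested, with 27.2% higher and 26.0% lower in workers. In gamergates Actn had the largest knockdown fold change of the 3 genes, 0.43, Kr-h1 over GFP siRNA, or 35.1%, in the deposited table, but it did not pass (recovered SE 0.19, adjusted p = 0.0923). Its 95% interval there was 0.07 to 0.80, and its SE required a log2 fold change of 0.50 for a call. In workers the deposited log2 fold change of Actn was -0.05, Kr-h1 over GFP siRNA (recovered SE 0.16, 95% interval -0.37 to 0.27, adjusted p = 0.872). None of the 3 genes was therefore called in workers, where 4.92% of the 10577 genes tested were called, 2.23% higher and 2.69% lower. The level that the fold changes give for Kr-h1 workers was 1.06 times that for Kr-h1 gamergates, against 1.48 times for the GFP groups. This value combines the 3 comparisons and was not tested. The caste value of Actn and its knockdown value in gamergates both use the same GFP gamergates, so they are not independent.

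Since Actn is also a muscle gene, the levels of 12 muscle markers are given beside it (Mhc, Mlc2, TpnT, TpnCI, wupA, Tm2, sls, Mf, Mef2, Lmpt, Msp300 and tmod). Their summed recovered level was 15069 normalized counts in Kr-h1 workers, 29106 in GFP workers, 7930 in Kr-h1 gamergates and 6134 in GFP gamergates, and none of the 12 was at 0 in any group. With GFP siRNA the sum was 4.75-fold higher in workers than in gamergates. There 10 of the 12 were called higher, against 27.2% of all genes tested. The highest single marker stood at 7439 in GFP workers. The sarcomere gene with the largest caste difference, the titin-like sls, had a log2 fold change of 4.71 in that deposited table (adjusted p = 5.42e-15). After Kr-h1 siRNA the sum in workers was 0.518 times that of GFP workers. Actn there stood at 0.965 times its level in GFP workers. DESeq2 called 0 of the 12 in workers, against 2.23% of all genes higher and 2.69% lower. In gamergates the sum was 1.29 times that of the GFP group, and Actn stood at 1.35 times. There 4 of the 12 rose (Mef2, Lmpt, Msp300 and tmod), against 8.95% of all genes. The part of muscle in the Actn values was not tested. The summed level of 5 fat body markers (apolpp, Vhdl, Hex70a, Hex70c and Hex110) was 4060 normalized counts in Kr-h1 workers, 8392 in GFP workers, 2760 in Kr-h1 gamergates and 1062 in GFP gamergates. Most of each sum was apolpp alone, with 8252 in GFP workers.

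**Figure D2:**
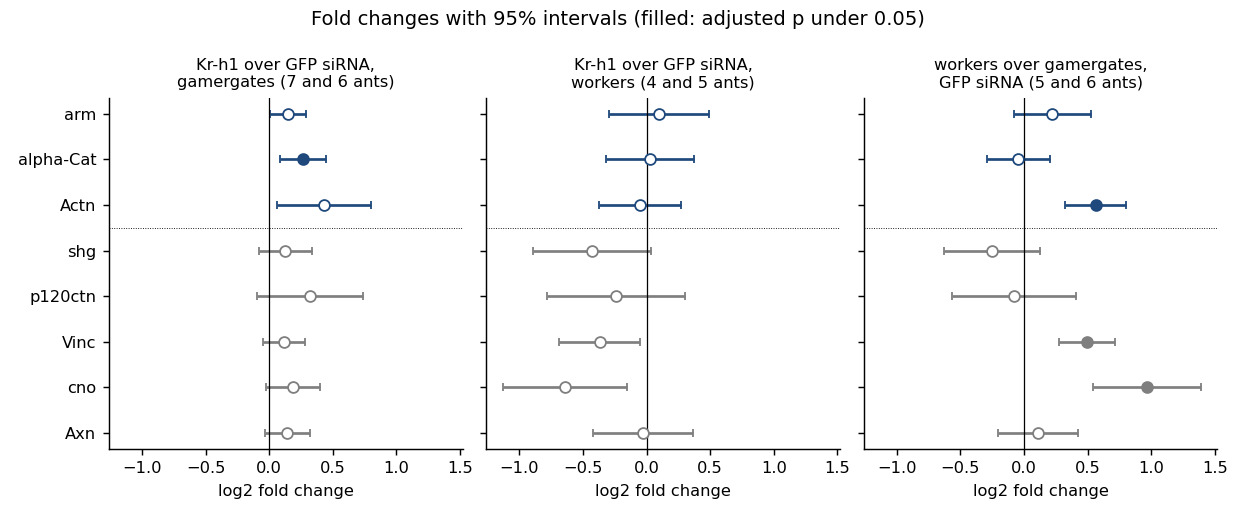
Log2 fold changes (horizontal axis) with 95% intervals from the recovered SEs for arm, alpha-Cat and Actn and, below the dotted line, for 4 of their junction partners and the scaffold gene Axn, in the 3 deposited comparisons. Filled points had an adjusted p under 0.05: of the 3 genes, alpha-Cat in gamergates (0.26) and Actn between castes (0.56).

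Whether the response to Kr-h1 siRNA differed between castes was tested directly, with a z test on both fold changes, since the worker and gamergate knockdown comparisons share no ant. For arm the worker response minus the gamergate response was -0.05 on the log2 scale (SE 0.21, adjusted p = 0.902). For alpha-Cat it was -0.24 (SE 0.20, 95% interval -0.63 to 0.16, adjusted p = 0.445). For Actn it was -0.49 (SE 0.25, 95% interval -0.97 to 0.0036, adjusted p = 0.179). None of the 3 differences passed, against 10.5% of the 10453 genes tested, 5.27% with the higher response in workers and 5.19% with the lower. The call of alpha-Cat in gamergates and its missing call in workers is thus not shown to be a difference between the castes.

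The ratios between the 3 genes are given without an error, because ants were shared within each comparison and values per ant are needed for it. The ratio of alpha-Cat to arm was 1.08 times as high with Kr-h1 as with GFP siRNA in gamergates, 0.953 times in workers, and 0.831 times as high in GFP workers as in GFP gamergates. The ratio of Actn to alpha-Cat was 1.12 times, 0.947 times and 1.52 times as high in the same order of comparisons. A scaling factor shared by all libraries of a group cancels in these ratios, while the scaling of single libraries does not. The ratios were not tested.

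The genes differed in their recovered SE in the same ants. Under a negative binomial model, the recovered SE in gamergates implied a spread between ants, as a coefficient of variation (CV), of 8.87% for arm, 11.4% for alpha-Cat and 23.4% for Actn. These CVs are values of the model and were not measured on single ants. Counting error at these means would add about 2% (2.16% for arm). The median implied CV of the 1204 genes with a mean within 1.5-fold of that of Actn was 11.6%, and 89.2% of them had a smaller SE than Actn. Actn thus had the largest fold change of the 3 in gamergates and also the widest error. In workers the order was the reverse, with an implied CV of 20.7% for arm, 18.1% for alpha-Cat and 16.8% for Actn. Between castes it was 17.5%, 14.4% and 14.0% for the same genes. The SE of arm in workers was 0.20, against 0.07 in gamergates.

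**Figure D3:**
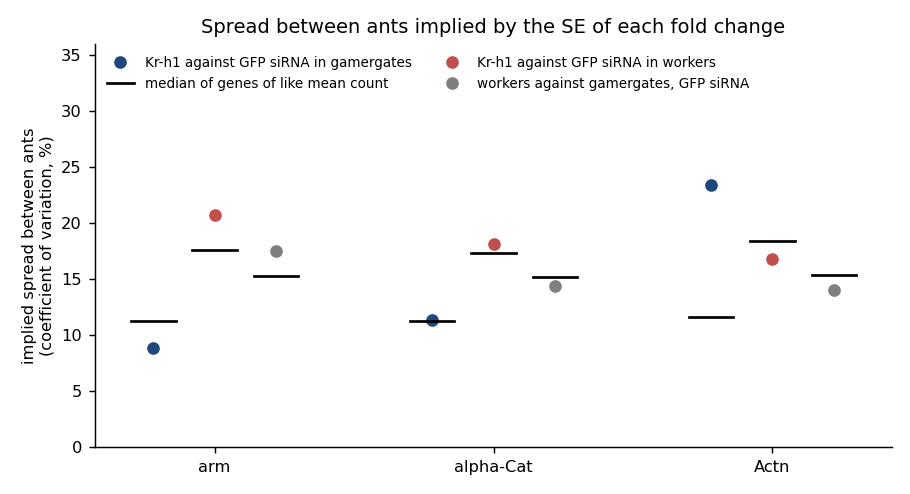
Spread between ants (coefficient of variation in percent, vertical axis) implied by the SE of each fold change, for arm, alpha-Cat and Actn (points) in the 3 comparisons, with the median of genes of like mean count as black bars. Actn in gamergates (23.4%) lies above the median of its like genes (11.6%). The implied spread of arm is 8.87% in gamergates and 20.7% in workers. These are values of the model, not measured on single ants.

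Of 4 partners of these proteins at the junction, none was called in either knockdown comparison. Over all genes tested, 14.8% were called in gamergates and 4.92% in workers, so no call among 4 genes does not set them apart. The E-cadherin gene shg (shotgun), whose product binds β-catenin, had log2 fold changes of -0.43 in workers (adjusted p = 0.261) and 0.13 in gamergates (adjusted p = 0.422) in the authors' deposited table. The gene of p120-catenin, p120ctn, which binds cadherin nearer the membrane, stood at -0.24 in workers (adjusted p = 0.626) and 0.32 in gamergates (adjusted p = 0.288) in that table. The gene of vinculin, Vinc, an actin-binding relative of α-catenin, stood at -0.37 in workers (adjusted p = 0.156) and 0.12 in gamergates (adjusted p = 0.329) in the deposited table. The afadin gene cno (canoe), a further link between junction and actin, stood at -0.64 in workers (adjusted p = 0.101) and 0.19 in gamergates (adjusted p = 0.224) there. These 4 partners all had negative values in workers and positive values in gamergates. The worker values of arm and alpha-Cat lay within 1 SE of 0 on the positive side, and relative to the running median on mean count they were -0.0072 and -0.089. Between castes, Vinc (0.50, adjusted p = 5.22e-05) and cno (0.97, adjusted p = 3.21e-05) were higher in workers in the authors' deposited table, like Actn. The cadherin and p120 genes did not pass there (-0.25 for shg, adjusted p = 0.268, and -0.08 for p120ctn, adjusted p = 0.813).

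In a list of 20 matched adherens junction genes, the 3 genes included, 4 rose in gamergates after Kr-h1 siRNA (20% of the list, against 8.95% of all genes tested) and 0 fell (against 5.9%). The 4 were ena (enabled, which promotes actin filament elongation) at 0.40, tmod (tropomodulin, which caps filament ends) at 0.30, alpha-Cat at 0.26 and Zyx (zyxin, a protein of junctions and focal adhesions) at 0.20 in the authors' deposited table. The list median was 0.19, against 0.0014 over all genes tested, and 18 of the 20 were positive, against 5587 of 11145 genes. Without the 3 genes, 3 of 17 rose and the median was 0.19. The only negative values in gamergates were those of pyd (the ZO-1 gene, -0.47, adjusted p = 0.413) and Rho1 (-0.0064, adjusted p = 0.968) in the deposited table. In workers 0 of the 20 were called by DESeq2, against 2.23% of all genes higher and 2.69% lower. At an unadjusted p under 0.05, 2 of the 20 were higher and 4 lower. The list median in workers was -0.10, against 0.01 over all genes. Between castes 8 were higher (against 27.2% of all genes) and 1 lower (against 26.0%) in workers than in gamergates, with a median of 0.14, against 0.05 over all genes. The most firmly called in the authors' deposited table were ena (1.03), the small GTPase gene Rap1 (0.85) and Actn (0.56).

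**Figure D4:**
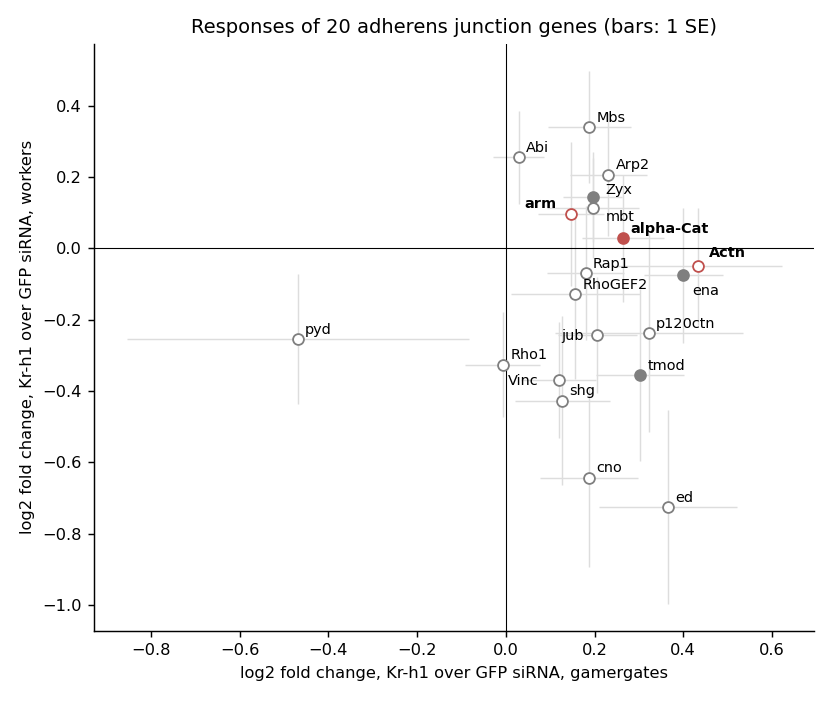
Log2 fold changes after Kr-h1 siRNA in workers (vertical axis) and gamergates (horizontal axis) of 20 adherens junction genes, with arm, alpha-Cat and Actn in red and bars of 1 SE. Filled points were called in gamergates and none was called in workers; cno and ed lie lowest in workers (-0.64 and -0.73).

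For the difference of the worker and gamergate responses, 2 of the 20 adherens junction genes passed, a share near the 10.5% of all genes, and neither was arm, alpha-Cat or Actn. For ed (echinoid, a cell adhesion protein of the immunoglobulin family, named after its value was seen) the worker response was lower by 1.09 on the log2 scale (SE 0.31, adjusted p = 0.0125), and for cno it was lower by 0.83 (SE 0.27, adjusted p = 0.0306). In 17 of the 20 the difference was negative, against 5265 of the 10453 genes tested. The spread of z over all genes was 1.87 times that of a standard normal, and when z was divided by that factor 1 gene of 10453 was called in all.

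In each of the lists around the junction, more members were called after Kr-h1 siRNA in gamergates than in workers, where fewer ants were compared and calls were fewer over all genes too. The shares of all genes were 8.95% higher and 5.9% lower in gamergates, and 2.23% and 2.69% in workers. Of 22 septate junction and polarity genes, 6 rose and 1 fell in gamergates (median 0.14). The 6 were the polarity genes par-6 (0.47) and aPKC (0.35), the sodium pump subunit Atpalpha (0.38), the smooth septate junction gene hoka (1.18), the band 4.1 protein cora (0.36) and the adhesion protein Nrg (0.21) in the authors' deposited table. The 1 that fell there was the polarity gene l(2)gl (-0.59, adjusted p = 0.0468), which stood at -0.65 in workers (adjusted p = 0.0591) in the deposited table. In workers 0 of 21 rose and 2 fell, Nrx-IV (neurexin IV, -0.75) and mesh (-3.34, mean count 14.4) in the deposited table (median -0.33). Of 12 other cadherins, 3 rose in gamergates, the calsyntenin Cals (0.60), the atypical cadherin kug (0.61) and Cad87A (0.30), and 2 fell, Cad88C (-2.48) and Cad74A (-3.06), in the table the authors deposited. In workers 0 of the 12 were called by DESeq2 (median -0.68; at an unadjusted p under 0.05, 3 lower and 0 higher).

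Among 33 genes that bundle, cap or pull actin filaments, 7 rose and 1 fell in gamergates (median 0.19). Among them were the adducin hts (0.32) and the spectrins beta-Spec (0.42), alpha-Spec (0.45) and kst (0.54) in the authors' deposited table. The 1 that fell there, Past1 (-1.71), is an endocytic protein and also the 1 that fell in workers (-1.24), where the list median was -0.06. Of 20 integrin adhesion genes, 5 rose and 0 fell in gamergates (median 0.21), among them the talin gene rhea (0.52), the tensin gene by (0.72) and the collagen gene Col4a1 (0.45) in the deposited table. In workers 1 of these 20 fell, the integrin α subunit gene if (-1.18 in the authors' deposited table), with a median of -0.35. Relative to the running median on mean count, 5 integrin genes rather than 1 were called lower in workers, and 4 septate junction genes rather than 2. Between castes the list medians were 0.41 for septate junction and polarity, 0.0039 for the other cadherins, 0.06 for actin and 0.52 for integrin adhesion. The calls there, higher and lower in workers, were 10 and 3 of 21, 3 and 4 of 12, 8 and 7 of 33, and 11 and 0 of 20 in the same order, against 27.2% and 26.0% of all genes. The shares in the actin list (24.2% and 21.2%) lay near that background.

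Of 25 matched genes of Wnt signalling, the pathway in which arm acts in the nucleus, 10 rose (40%, against 8.95% of all genes) and 1 fell (against 5.9%) in gamergates, with a median of 0.25. By adjusted p, the first 6 of the 10 in the authors' deposited table were the glypicans dally (0.40) and dlp (0.45), the receptor fz2 (frizzled 2, 0.71), lgs (legless, which binds β-catenin, 0.28), the casein kinase gish (0.49) and the kinase nmo (nemo, 0.41). The scaffold gene Axn (axin), which acts in the turnover of β-catenin, stood at 0.14 there (adjusted p = 0.255). The list holds activators and inhibitors of the pathway, so these counts give no direction of signalling. In workers 0 of the 25 were called by DESeq2, against 2.23% of all genes higher and 2.69% lower. At an unadjusted p under 0.05, 1 was higher and 1 lower, and the median was -0.03. Neither Axn (-0.03) nor arm was called in workers in the deposited table. Between castes 11 were higher (against 27.2% of all genes) and 4 lower (against 26.0%) in workers (median 0.12), with fz2 at 2.07 and CtBP (a co-repressor) at 1.14 in the authors' deposited table.

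**Figure D5:**
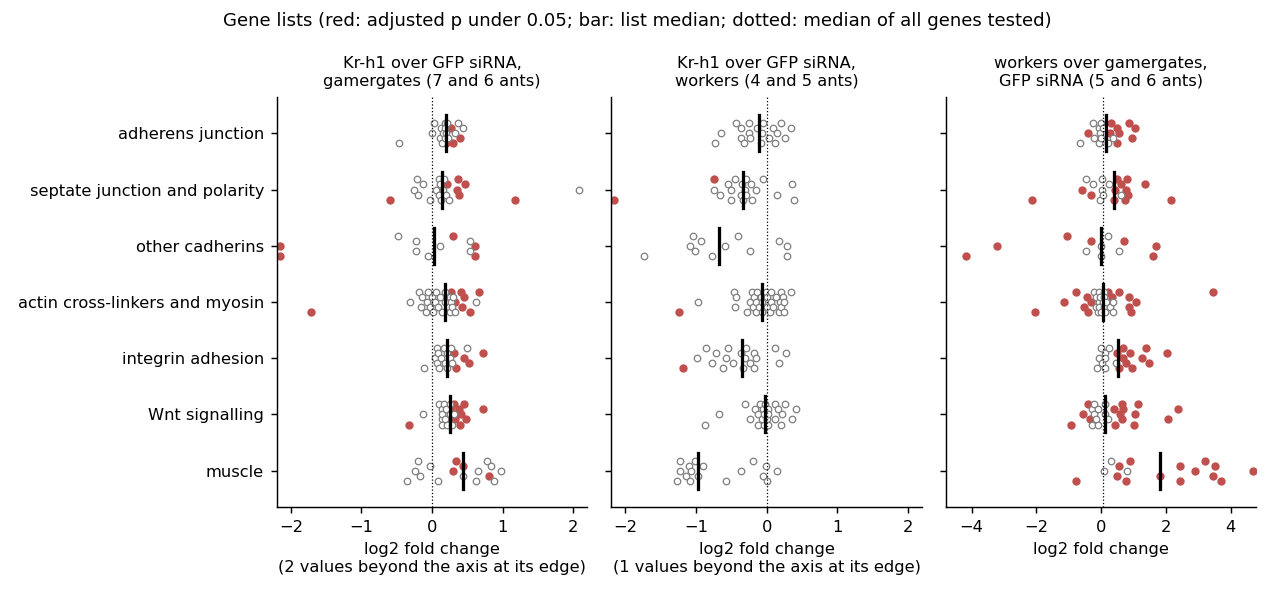
Log2 fold changes (horizontal axis) of the members of 7 gene lists in the 3 comparisons, with called members in red, list medians as black bars and the median of all genes tested as a dotted line; the axis of the caste panel is wider, and values beyond an axis are drawn at its edge. The adherens junction medians are 0.19 in gamergates, -0.10 in workers and 0.14 between castes.

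Lists of other tissues and of the egg chamber are given for comparison, with the calls in gamergates first. Over all genes tested, 8.95% were higher and 5.9% lower in gamergates, 2.23% and 2.69% in workers, and 27.2% and 26.0% between castes. The 17 muscle genes, which include Actn and tmod, had 4 higher and 0 lower in gamergates, 0 called in workers by DESeq2 (at an unadjusted p under 0.05, 6 lower and 0 higher) and 13 higher and 1 lower between castes. The 11 germline genes had 2 higher in gamergates and 0 called in workers by DESeq2 (at an unadjusted p under 0.05, 3 higher and 1 lower), and 5 higher and 5 lower between castes. Of the eggshell genes, 1 was higher and 2 lower of 4 tested in gamergates, 4 were lower of 6 in workers, and 3 were lower of 5 between castes. Of the fat body genes, 5 were higher of 11 in gamergates, 1 was lower of 10 in workers, and 6 were higher and 1 lower of 10 between castes. Of 5 haemocyte genes, 0 were called in gamergates by DESeq2 (0 at an unadjusted p under 0.05), 1 was lower in workers, and 2 were higher and 3 lower between castes.

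The genes whose 3 log2 fold changes lay nearest to those of each gene were sought among 3658 others with a descriptive symbol and a mean of at least 50, by Euclidean distance over the 3 comparisons of the 4 groups. Nearest to arm were shu, Mondo, Vps52 and Myd88, at distances of 0.02 to 0.04. Nearest to alpha-Cat were Msh6, sky, Wdr33 and jvl, at 0.02 to 0.04. Nearest to Actn were PlexA, faf, Bap170 and Vps13D, at 0.06 to 0.08. These distances are below the smallest recovered SE of the same gene (0.07 for arm, 0.09 for alpha-Cat and 0.12 for Actn). Which genes lie nearest is therefore not settled, and the ranks below carry no error. The 3 genes were not among the 4 nearest to each other. From arm, where the median distance was 0.54, alpha-Cat ranked 625 (distance 0.30) and Actn 1494 (0.47). From alpha-Cat, where the median was 0.55, arm ranked 561 (0.30) and Actn 2242 (0.64). From Actn, where the median was 0.84, arm ranked 480 (0.47) and alpha-Cat 1023 (0.64). Of these 6 distances, that of Actn from alpha-Cat was the 1 above its median. In the authors' deposited table all 4 genes nearest to Actn were called in gamergates (adjusted p from 0.00143 to 0.00729), where Actn was not. Over all genes tested there, 14.8% were called. The 4 were chosen for fold changes like those of Actn, so their calls are not independent of that choice.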

How the data were processed

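Ovary RNA of 22 ants in 4 groups was compared. Per the submitters' processing notes, bcl2fastq, STAR, featureCounts and DESeq2 were used; their versions, the genome build, the strand setting and the model are not stated in those notes or labels. The authors deposited, for each comparison, a mean normalized count (a value with no fixed unit here), the log2 fold change, and p-values before and after adjustment. The table has 0 value columns per sample, so the count test that would need them could not be run, and the deposited adjusted p (0.05) was used.

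From these values the SE was recovered as the fold change over the normal quantile of the p-value, on the assumption that the authors' DESeq2 fit used its Wald test. Group means came from mean, fold change and group size. The control means recovered from both comparisons differed, after scaling, by a robust SD of 0.00065 (GFP gamergates) and 0.0031 (GFP workers) on the log2 scale. The implied CV assumes equal size factors. Differences of responses were tested by a z test with Benjamini-Hochberg adjustment over 10453 genes. On simulated data for that difference over 10453 genes, 58.4% of changes of 1 and 77.8% of changes of 2 on the log2 scale were recovered. The unchanged genes were drawn with the recovered SEs, so their z was standard normal, whereas z in the data spread 1.87 times as widely. These rates therefore do not describe the test on the data, and smaller changes were not simulated. Scripts ran in Python 3.11.15 with scipy 1.17.1. Alternatives were other adjustments, filters at means of 10 and 50, and centring on the median or on a running median of 501 genes.

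Symbols came from RefSeq assembly Hsal_v8.6 (13681 of 13693 identifiers matched) and follow presumed fly counterparts; without a stated build, coordinates are left out. In the lists, 176 genes matched exactly by symbol; sgg, Apc and pan, of 8 core partners, did not. The symbols vg and Nos were left out because each can stand for another gene. The genes and lists were chosen with earlier results of these data known. Named are the 3 genes, up to 6 called members per list and comparison with the smallest adjusted p, the core partners and the 4 nearest genes; ed, pyd and Rho1 were named after their values were seen. Of the lists for germline, eggshell, fat body and haemocytes, counts are given, and summed levels and calls of fixed markers. Nothing in the labels states separate colonies, so p-values measure the spread between these ants.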

Additional observations from a re-analysis of the deposited data

Results flagged for a closer look

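The response to Kr-h1 siRNA differed between workers and gamergates, by the z test with an adjusted p under 0.05, for 21 of 77 genes (all 20 of the adherens junction list and those named by rule from the other junction, actin, integrin, Wnt and muscle lists), against 10.5% of all genes tested, and arm, alpha-Cat and Actn were not among them. Most of the 77 were taken because they were called in a deposited comparison, so neither that share nor the sign of the differences (19 negative, 2 positive) is independent of how they were chosen. Over all genes the calls were 551 with the higher response in workers and 542 with the lower. In the adherens junction list the difference, worker minus gamergate on the log2 scale, was -0.83 for cno and -1.09 for ed. In the septate junction list it was -0.94 for Nrx-IV, -0.81 for cora, -1.72 for hoka and -3.08 for mesh. Among the other cadherins it was -1.69 for kug and 2.76 for Cad88C. Among the actin genes it was -0.75 for Myo31DF, -0.87 for beta-Spec and -0.60 for hts. In the integrin list it was -0.99 for Col4a1, -0.88 for Src64B, -1.71 for by, -1.35 for if and -0.96 for mys. In the Wnt list it was -0.62 for dlp, -1.39 for fz2 and 0.54 for hyx, and in the muscle list -1.71 for Lmpt and -0.92 for Msp300. Of the 21, 0 were called when z was divided by its robust SD over all genes (1.87), at which 1 gene was called in all.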

How the results depend on the processing

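The call of alpha-Cat in gamergates held under all 5 alternatives run (log2 0.26 to 0.27, adjusted p 0.0314 to 0.0421), and so did that of Actn between castes (0.52 to 0.62, adjusted p 3.09e-06 to 9.66e-05). These alternatives kept the deposited p-value or the recovered SE and changed only the adjustment or the centring. They therefore do not test the SE itself. Relative to the running median on mean count, which stood at 0.10 to 0.12 in workers and -0.14 to -0.05 between castes for these genes, arm in workers became -0.0072 and alpha-Cat -0.089, and between castes alpha-Cat became 0.063 and arm 0.36 (adjusted p = 0.0399; 0.0399 to 0.343 over the 5 alternatives). None of these but arm between castes was called. The other 53 values of the 3 genes kept their direction and their side of the threshold. The genes called for a difference of responses numbered 1 when z was divided by its robust SD, against 1093. Of 330 list counts under the alternatives, 15 moved by over 1.5 times; with the running median removed, 5 integrin genes rather than 1 and 4 septate junction genes rather than 2 were called lower in workers. No paired analysis was possible because the table holds no values per ant; for the same reason leaving out single replicates and a DESeq2 or other count fit were not run. Depth per library is unknown, so its effect could not be separated from the spread between ants.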
